A study of Mus musculus with 6 samples.

Results

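The 9 genes described here encode membrane pumps of the ABC (ATP-binding cassette) family that are known for carrying drugs. They are Abcc1, Abcc2, Abcc3, Abcc4 and Abcc5 (multidrug resistance-associated proteins), Abcb1a and Abcb1b (the mouse P-glycoproteins), Abcg2 (breast cancer resistance protein) and Abcb6. They were chosen by name, not by their levels, and each has a row among the 24454 genes of the table. Their RNA was measured in MTflEcad, an epithelial breast cancer line that was grown out of a tumour in the mammary gland. The donor strain was MMTV-Neu, whose mammary epithelium makes the Neu (ERBB2) oncogene under the control of a mammary tumour virus promoter. The group called PBS was left untreated (0 µM H2O2), I80 was given 80 µM H2O2 every day for 7 months, and DI150 was given 150 µM H2O2 for the same time. All 3 groups carry the same oncogene and grew in the same medium with serum. Each dose is represented by 1 line, so the dose and the line cannot be told apart, and each group has 2 sequencing libraries. The libraries are described as biological duplicates without saying whether they came from separate cultures, so p-values here measure the spread between these libraries, which may be technical.

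ABC transporters use the energy of ATP hydrolysis to move substrates across a membrane. Those of the multidrug group export chemotherapy drugs, hormones and conjugates that the cell has made by joining a toxic compound to glutathione, glucuronate or sulphate. Abcc1 is the best known exporter of glutathione conjugates and of oxidised glutathione, and Abcg2 exports a wide range of flat, hydrophobic compounds, urate and porphyrins, and carries vitamins into milk in the lactating mammary gland.

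Of the 9 genes, 7 have an entry in a RefSeq table of promoter sequences on GRCm38.p6, the genome build also called mm10, and Abcc1 and Abcc3 have none. The 250 bases that precede a start site are shown for the 4 tested genes that have an entry, since these are the genes whose levels are compared below. The start of Abcg2 shown is the last of 3, and that of Abcc4 the first of 2, and the first 50 transcribed bases of each start shown match a GENCODE transcript. Capitals mark matches, on either strand, to TGACNNNGC (the core of the antioxidant response element) or to TGACGTCA (the cyclic AMP response element), both chosen with the sequences in view.
Abcg2, chr6:58640296-58640545, + strand: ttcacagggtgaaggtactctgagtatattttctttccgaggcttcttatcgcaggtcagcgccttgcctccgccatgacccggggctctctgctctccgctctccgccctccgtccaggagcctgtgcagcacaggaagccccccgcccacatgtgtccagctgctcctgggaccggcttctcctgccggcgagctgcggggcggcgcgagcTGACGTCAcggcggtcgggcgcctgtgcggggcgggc
Abcb6, chr1:75180393-75180642, - strand: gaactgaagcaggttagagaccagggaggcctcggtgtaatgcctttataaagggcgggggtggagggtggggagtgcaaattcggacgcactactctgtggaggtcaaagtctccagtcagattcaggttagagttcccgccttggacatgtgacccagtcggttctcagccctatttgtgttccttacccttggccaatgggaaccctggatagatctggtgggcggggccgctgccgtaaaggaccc
Abcc4, chr14:118706220-118706469, - strand: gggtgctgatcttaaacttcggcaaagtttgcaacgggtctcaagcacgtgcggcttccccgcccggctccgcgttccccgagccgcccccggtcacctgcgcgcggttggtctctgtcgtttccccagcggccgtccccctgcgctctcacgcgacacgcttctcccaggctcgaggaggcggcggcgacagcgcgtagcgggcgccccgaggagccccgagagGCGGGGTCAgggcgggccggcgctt
Abcc5, chr16:20426395-20426644, - strand: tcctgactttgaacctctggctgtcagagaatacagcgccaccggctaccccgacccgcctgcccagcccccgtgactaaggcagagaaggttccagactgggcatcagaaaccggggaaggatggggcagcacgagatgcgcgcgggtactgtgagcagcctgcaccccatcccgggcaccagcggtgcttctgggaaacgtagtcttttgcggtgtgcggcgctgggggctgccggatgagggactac
The window of Abcg2 holds 1 TGACGTCA, beginning 37 bases before the start, and 1.55% of the 32851 promoter windows in the table hold that motif. The window of Abcc4 holds 1 TGACNNNGC, read on the opposite strand and beginning 25 bases before the start, against 10.2% of all windows. The same motif lies in the window of the other start of Abcc4 and in that of Abcc2, and in no window of Abcc5, Abcb1a, Abcb1b, Abcb6 or the 3 starts of Abcg2. GCGTG, the core of the xenobiotic response element, was found only in the window of Abcc4 shown, 2 times and not in capitals, against 28.2% of all windows. The windows shown differ in CpG dinucleotides, with 23 in Abcg2, 9 in Abcb6, 35 in Abcc4 and 17 in Abcc5, where the median over all windows is 6. A match is a match of letters and does not show that a factor binds there.

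The libraries held 21017849 to 26608715 reads assigned to genes, and 13905 to 15015 genes had at least 1 read. Levels are given as CPM, the reads of a gene per 1000000 assigned reads, so that 1 read is worth 0.0376 to 0.0476 CPM. Of the 8 markers of mammary epithelium, Epcam, Cdh1, Krt8, Krt18 and Krt7 were above 370 CPM in each library. Epcam rose from 583.2 and 628.6 CPM in PBS to between 647.5 and 1109 CPM in the treated libraries. Between the same libraries Cdh1 fell from 579.1 and 668.5 CPM to between 373.9 and 404.8 CPM. Krt8 fell from 2018 and 1883 CPM to between 568.3 and 715.9 CPM. Krt18 fell from 2795 and 2742 CPM to between 852.2 and 988.4 CPM. Krt7 fell from 3429 and 3093 CPM to between 389.7 and 653.1 CPM. Cldn3 changed less, from 180.0 and 213.0 CPM to between 149.5 and 173.6 CPM. Cldn4 fell from 123.9 and 177.6 CPM to between 0.412 and 0.936 CPM, and Krt19 from 5.75 and 11.2 CPM to 0. The list summed to 9416 to 9713 CPM in PBS and to 3348 to 3692 CPM in the treated libraries. Replicates differed by more than counting error, most of all the PBS pair (chi-square divided by its degrees of freedom 23.3, against 4.39 for the I80 pair and 9.42 for the DI150 pair). Intervals on reads therefore cover counting error only. Tests were made with limma on log2(CPM + 0.5) over the 11428 genes that averaged 1 CPM or more, and calls were made below an adjusted p of 0.05.

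The efflux genes did not move together. Abcg2, Abcc1 and Abcb6 rose in both treated lines, Abcc5 fell to a few reads in both, and Abcc4 was lower in DI150 than in PBS. Abcc2, Abcc3, Abcb1a and Abcb1b were at or near 0 in the treated lines, were too low to test and never exceeded 1.46 CPM in any library. RNA from a whole culture cannot tell fewer cells that express a gene from less of its RNA per cell.

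**Figure D1:**
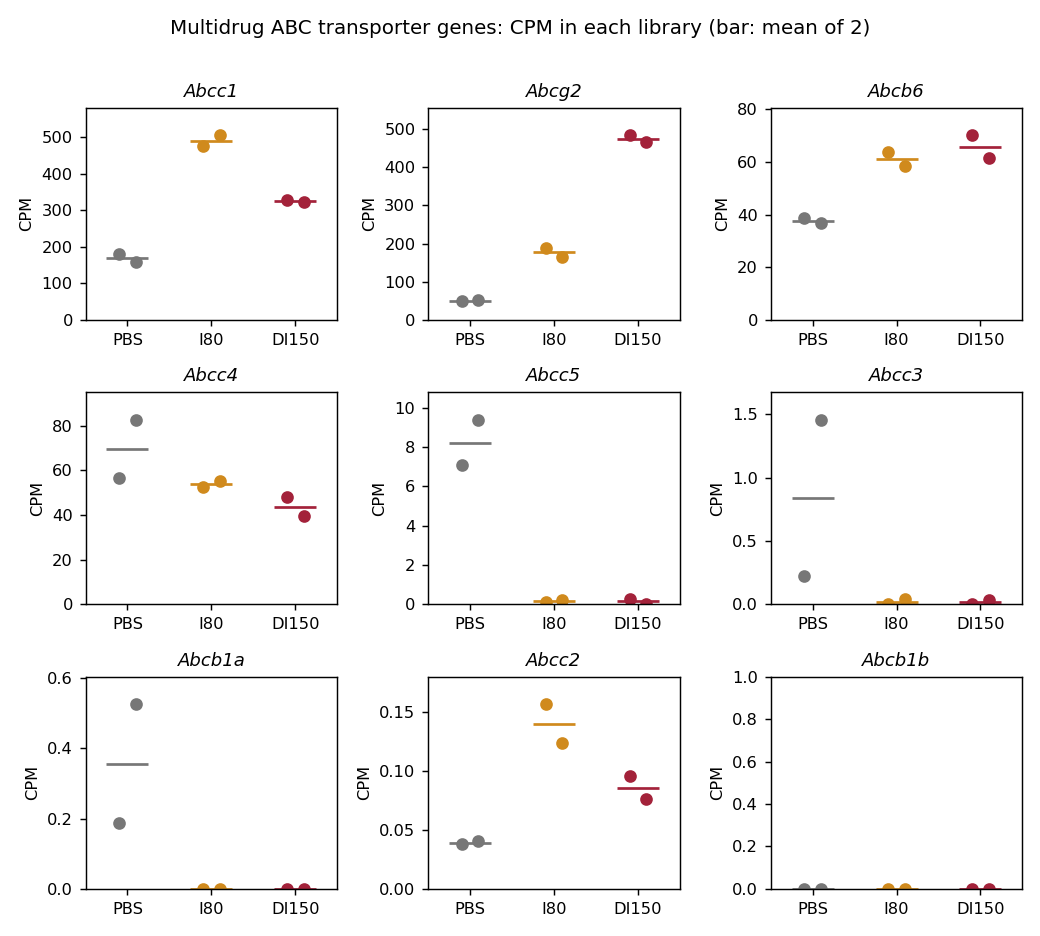
CPM of each of the 9 genes (vertical axes, each from 0 and scaled to its own gene) in the 2 libraries of PBS, I80 and DI150 (points), with a bar at the mean of the 2. Abcg2 steps up from PBS to I80 to DI150, Abcc1 is highest in I80, Abcc5 has 7.07 and 9.38 CPM in PBS and at most 0.285 CPM in a treated library, and Abcb1b has no read.

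Against PBS, 4 of the 5 tested members were called in I80, 3 higher (Abcc1, Abcg2, Abcb6) and 1 lower (Abcc5). Calls were common in that comparison, in which 66.4% of all tested genes were called, 32.3% higher and 34.2% lower. In DI150 all 5 tested members were called, 3 higher and 2 lower, where 68.7% of all tested genes were called, 32.7% higher and 36.1% lower. Abcc5 was tested through its PBS level alone, so in both counts it could be called only as lower. A count of 4 or 5 called out of 5 is near these backgrounds, so the members are described by the sizes of their changes. The median log2 change of the 5 tested members was 0.69 in I80 and 0.79 in DI150, against -0.002 and -0.03 over all tested genes. In both lines this median is the change of 1 gene, Abcb6, whose count is uncertain, as described below. The changes ran from -3.71 to 1.79 in I80 and from -3.73 to 3.21 in DI150, so the median does not describe a shift of the group. Both comparisons use the same PBS libraries and are not independent of each other.

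Abcg2, the pump known as breast cancer resistance protein (gene 26357, chr6:58584491-58692451, + strand), had the largest rise of the tested members. It stood at 50.3 and 51.2 CPM in PBS, at 188.8 and 165.6 CPM in I80 and at 482.3 and 466.1 CPM in DI150. No group overlapped another, and the 2 PBS libraries lay within 1 CPM of each other. The mean was 50.8 ± 0.617 CPM in PBS, 177.2 ± 16.5 CPM in I80 and 474.2 ± 11.4 CPM in DI150 (SD, n = 2 each). Abcg2 was 3.49-fold higher in I80 than in PBS (log2 fold change 1.79 ± 0.08 SE, limma adjusted p = 8.97e-07). It was 9.34-fold higher in DI150 than in PBS (3.21 ± 0.08, limma adjusted p = 5.73e-08), a change above that of 98.6% of tested genes. DI150 exceeded I80 by 2.68-fold (1.42 ± 0.08, limma adjusted p = 2.43e-05).

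Abcc1, the exporter of glutathione conjugates (gene 17250, chr16:14361453-14474878, + strand), rose in both lines and more in the line given the lower dose. It was at 181.1 and 159.9 CPM in PBS, 476.9 and 504.4 CPM in I80, and 327.2 and 322.0 CPM in DI150. Here too the groups did not overlap, and I80 stood highest. How many of all genes have no overlap between groups of 2 libraries was not counted. The groups of Abcc4, described below, did not overlap either, also where its test did not pass. The means were 170.5 ± 15.0, 490.7 ± 19.5 and 324.6 ± 3.65 CPM (SD, n = 2 each). Abcc1 rose 2.88-fold in I80 (log2 fold change 1.52 ± 0.08 SE, adjusted p = 2.06e-06 by limma) and 1.90-fold in DI150 (0.93 ± 0.08, adjusted p = 2.63e-05 by limma). DI150 was 1.51-fold lower than I80 (log2 fold change -0.59 ± 0.08 SE, limma adjusted p = 0.000946).

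Abcb6, which carries porphyrins (gene 74104, chr1:75171640-75180392, - strand), rose by less than Abcg2 and Abcc1. Its libraries held 38.7 and 36.8 CPM in PBS, 63.6 and 58.6 CPM in I80, and 70.1 and 61.7 CPM in DI150. The treated libraries were all above those of PBS, while I80 and DI150 overlapped. In I80 the level was 1.62 times that of PBS (log2 fold change 0.69 ± 0.09 SE, adjusted p = 0.000336 by limma). In DI150 it was 1.74 times that of PBS (0.79 ± 0.09, adjusted p = 0.000147 by limma). DI150 and I80 differed by 0.11 on the log2 scale, with a 95% interval from -0.11 to 0.32 (limma adjusted p = 0.378). The Abcb6 count is uncertain, because Gm29253, a transcript annotated on the same strand, shares 2932 of its exon bases (55.16%), and 64.0% of the 81-base stretches of the longest Abcb6 transcript are also found in Gm29253. That gene has no row in the table.

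Abcc4, which exports cyclic nucleotides, prostaglandins and nucleotide analogues (gene 239273, chr14:118482692-118707856, - strand), was at 56.5 and 82.6 CPM in PBS, 52.4 and 55.4 CPM in I80, and 48.0 and 39.6 CPM in DI150. The highest library was PBS replicate 2, and the 2 PBS libraries, with 1503 and 2042 reads, differed beyond counting error. Abcc4 fell 1.59-fold in DI150, from 69.5 ± 18.4 to 43.8 ± 5.96 CPM (SD, n = 2 each), a log2 fold change of -0.64 ± 0.17 SE that passed the test (limma adjusted p = 0.0116). That call was lost without PBS replicate 2 (limma adjusted p = 0.0579) and without DI150 replicate 3 (limma adjusted p = 0.0881). In I80, at 53.9 ± 2.12 CPM, it did not pass the test (log2 fold change -0.34, 95% interval -0.74 to 0.06, limma adjusted p = 0.116), and leaving out a PBS library moved it either way, to a call without PBS replicate 1 (-0.61, limma adjusted p = 0.0134) and to nearly no difference without PBS replicate 2 (-0.069, limma adjusted p = 0.662). The difference of DI150 from I80 was -0.30 (95% interval -0.70 to 0.10, limma adjusted p = 0.195).

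Abcc5, an exporter of cyclic nucleotides and nucleotide analogues (gene 27416, chr16:20331303-20426428, - strand), fell from 188 and 232 reads in PBS to 3 and 5 reads in I80 and to 6 and 1 reads in DI150. These are 7.07 and 9.38 CPM in PBS, 0.117 and 0.206 CPM in I80, and 0.285 and 0.0382 CPM in DI150. Every treated library was far below PBS, and the treated lines overlapped each other. Reads pooled over libraries gave a PBS to I80 ratio of 51.0 (95% counting interval 25.7 to 119.0) and a PBS to DI150 ratio of 55.2 (26.6 to 138.1). The limma log2 fold changes were -3.71 ± 0.25 SE in I80 (adjusted p = 8.88e-06) and -3.73 ± 0.25 in DI150 (limma adjusted p = 7.90e-06), which understate the fall because 0.5 was added to each value. Abcc5 passed the filter on low values through its PBS level alone. Between the treated lines the log2 difference was -0.02 (95% interval -0.60 to 0.56, limma adjusted p = 0.957), at read numbers too small to order them.

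The other members of the Abcc and Abcb1 groups had few reads. Abcc3, which exports bile acids and glucuronides (gene 76408, chr11:94343295-94393017, - strand), had 6 and 36 reads in the PBS libraries, and 0 and 1 reads in I80 as in DI150. PBS replicate 1 held 14.3% of the 42 PBS reads (exact 95% interval 5.43% to 28.5%), while its share of the depth was 51.8%, so most of the Abcc3 signal came from PBS replicate 2. The PBS to I80 ratio was 40.8 (95% counting interval 6.94 to 1650) and the PBS to DI150 ratio 38.6 (6.57 to 1562). Without a filter on low values, limma gave adjusted p = 0.0546 and 0.0519 for these differences. Abcb1a, a P-glycoprotein gene known for its role at the blood-brain barrier (gene 18671, chr5:8567091-8748575, + strand), had 5 and 13 reads in PBS and none in the 4 treated libraries. Taking 3 reads per library as the most that a count of 0 allows (0.113 to 0.143 CPM), Abcb1a was at least 2.96-fold lower in I80 and at least 2.77-fold lower in DI150 than in PBS. Without the filter, limma called both falls (adjusted p = 0.0133 and 0.0126). Of its 81-base stretches, 11.6% are also found in other genes, 481 of the 569 in Abcb1b, and Gm42686, annotated on the opposite strand, shares 553 of its exon bases.

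Abcb1b, the other P-glycoprotein gene (gene 18669, chr5:8798147-8866314, + strand), had 0 reads in all 6 libraries, which allows up to 0.113 to 0.143 CPM. Abcc2, which exports conjugates into bile (gene 12780, chr19:43782308-43838332, + strand), had 1 read in each PBS library, 4 and 3 reads in the I80 libraries, and 2 reads in each DI150 library. The PBS to I80 ratio of Abcc2 was 0.278 with a 95% counting interval from 0.0281 to 1.46, which includes equality. Without the filter limma gave adjusted p = 0.0252 for Abcc2 in I80 and 0.200 in DI150, at levels of at most 0.156 CPM.

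**Figure D2:**
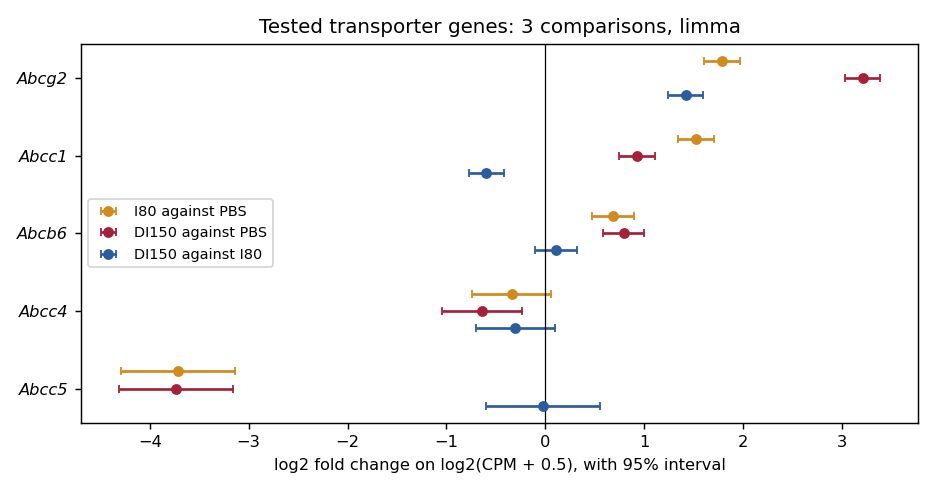
Log2 fold change on log2(CPM + 0.5) (horizontal axis) of the 5 tested genes in 3 comparisons, with the 95% interval from limma as bars. Abcg2 lies to the right of 0 in each comparison, Abcc1 lies to the right against PBS and to the left for DI150 against I80, and Abcc5 lies near -3.7 against PBS in both lines.

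DI150 against I80 compares the treated lines with each other and is also the test of whether their changes from PBS differ. Of the 5 tested members, Abcg2 was higher and Abcc1 lower in DI150, and Abcb6, Abcc4 and Abcc5 did not pass. Among all tested genes 43.8% were called, 21.9% higher and 21.9% lower. That share rests on all libraries, since the 5008 calls became 2541 and 2487 without I80 replicate 1 or 2, 3012 and 3209 without DI150 replicate 1 or 3, and 2688 with the replicate block. The block went by column number, so DI150 replicate 3 stood alone in it and that fit rested on DI150 replicate 1 for its group. The 1.42 log2 rise of Abcg2 was above that of 98.3% of tested genes, and the -0.59 of Abcc1 was above that of 8.89% of them.

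Levels of different genes were compared after dividing CPM by the length of all annotated exons in kilobases. In PBS, Abcc1 had the highest level at 11.3 ± 0.992 CPM per kilobase, and Abcc4 followed at 10.9 ± 2.89 (SD, n = 2 each), a difference within the spread of the libraries. Abcb6 at 7.11 ± 0.259 and Abcg2 at 6.23 ± 0.0756 CPM per kilobase came next and did not overlap, and Abcc5 stood at 0.770 ± 0.153. In I80 the order was Abcc1 (32.5 ± 1.29), Abcg2 (21.7 ± 2.02), Abcb6 (11.5 ± 0.674) and Abcc4 (8.43 ± 0.331). In DI150 Abcg2 led at 58.2 ± 1.40, ahead of Abcc1 (21.5 ± 0.242), Abcb6 (12.4 ± 1.11) and Abcc4 (6.85 ± 0.934 CPM per kilobase). Neighbours in the orders of I80 and DI150 did not overlap. By this length Abcg2 thus went from the lowest of these 4 in PBS to the highest in DI150, and Abcc4 from near the top to the lowest. The place of Abcg2 below Abcb6 in PBS depends on the uncertain count of Abcb6.

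The levels per kilobase of all 9 genes summed to 35.0 and 38.0 in the PBS libraries, 75.0 and 73.5 in I80, and 101.6 and 96.3 in DI150. Abcg2 made up 17.6% and 16.5% of that sum in PBS, and its share grew to 30.9% and 27.6% in I80 and to 58.2% and 59.3% in DI150. Abcc1 made up 34.2% and 27.9% of the sum in PBS, a larger share in I80 (42.2% and 45.5%) and a smaller one in DI150 (21.3% and 22.2%). The share of Abcc4 was 25.2% and 34.1% in PBS and 7.40% and 6.43% in DI150. Most of the pump RNA of DI150 in this list was therefore that of 1 gene, Abcg2. With the length of the longest transcript in place of all exons the order of these 4 genes was the same in each group, although the level of Abcc1 became 25.1 CPM per kilobase in PBS, 72.2 in I80 and 47.8 in DI150. In PBS Abcc4, at 9.88 and 14.4 CPM per kilobase, was then clear of Abcc1 (26.7 and 23.5) and overlapped Abcb6 (10.3 and 9.76).

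**Figure D3:**
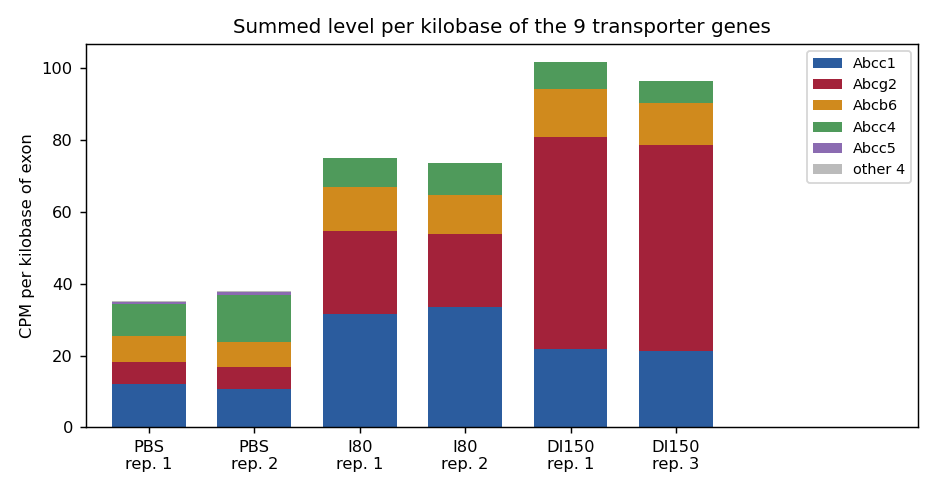
Summed CPM per kilobase of exon (vertical axis, from 0) of the 9 genes in each of the 6 libraries, coloured by gene. The sum rises from 35.0 and 38.0 in PBS to 101.6 and 96.3 in DI150, and the Abcg2 part grows from 6.17 and 6.28 to 59.2 and 57.2 CPM per kilobase.

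Genes with the most similar profile over the 6 libraries were found for Abcg2, Abcc1 and Abcc5, whose group means span at least 1 on the log2 scale. Likeness was measured as the root mean square difference between profiles of log2(CPM + 0.5), each centred on its own mean. Closest to Abcg2 were Glrb, a subunit of the glycine receptor (0.150), at 0.696, 3.11 and 9.33 CPM in PBS, I80 and DI150, and Tns1, a tensin of focal adhesions (0.159), at 1.46, 5.89 and 13.8 CPM. Closest to Abcc1 were Gle1, a factor of mRNA export (0.0704), at 93.3, 250.4 and 168.4 CPM, and the thioredoxin-related Tmx4 (0.0886), at 18.4, 49.2 and 33.9 CPM. Closest to Abcc5 were Lgals7, a galectin (0.110), at 8.36, 0.140 and 0.157 CPM, and the palmitoyltransferase Zdhhc12 (0.133), at 10.6, 0.261 and 0.200 CPM. These genes were picked for their likeness, which is a description.

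For Abcg2, Abcc1, Abcb6 and Abcc5 the median change of the tested genes within 1 Mb was nearer to 0 than that of the member. Within 1 Mb of Abcc5, 17 tested genes had a median log2 change of 0.15 in I80 and -0.02 in DI150, against -3.71 and -3.73 for Abcc5 itself. The 9 tested neighbours of Abcc1 had medians of 0.14 and -0.11. Their largest change was 0.44 in I80, below the 1.52 of Abcc1, and 0.99 in DI150, above its 0.93. For Abcg2 the 7 tested neighbours had medians of 0.67 and 0.35, and their changes ran from -6.26 to 3.37 in I80 and, below the 3.21 of Abcg2, from -1.05 to 1.14 in DI150. The 29 neighbours of Abcb6 had medians of -0.38 and -0.39, opposite in sign to Abcb6. Their largest changes, 1.28 in I80 and 1.25 in DI150, were above the 0.69 and 0.79 of Abcb6. Abcc4 lay closer to its surroundings, with medians of -0.50 and -0.36 over 5 neighbours and of -0.59 and -0.41 over the 365 other tested genes of chromosome 14, beside its own -0.34 and -0.64.

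The rest of the ABC family gives the setting for these changes. Of 44 other ABC genes, 21 were tested and 12 had no read in any library. In I80, 8 of the 21 were higher, 5 lower and 8 not called, with a median log2 change of 0.09, and in DI150 the counts were again 8, 5 and 8, with a median of 0.26. That is 61.9% called in each line, near the 66.4% and 68.7% of all tested genes. Among the lipid transporters of the ABCA group 5 of 6 tested genes were higher in I80, and in DI150 4 were higher and 1 lower. Abca8b had 1 read in the PBS libraries together and stood at 11.4 ± 0.294 CPM in I80 and 1.32 ± 0.0852 CPM in DI150. Abca8b passed the filter on low values through its I80 level, so against PBS it could be called only as higher. Of the ABCB group, which holds mitochondrial, lysosomal and peptide transporters, 1 of 6 was higher and 3 were lower in I80, and 2 were higher and 2 lower in DI150. The mitochondrial transporter Abcb10 fell from 90.4 to 46.0 CPM in I80 and to 62.2 CPM in DI150 (limma adjusted p = 4.00e-05 and 0.000904). The peptide transporters Tap2 and Abcb9 rose in DI150, Tap2 from 17.1 to 33.1 CPM and Abcb9 from 1.54 to 5.63 CPM (limma adjusted p = 0.000628 and 0.00174).

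In the ABCC group Abcc10, itself a drug exporter and the 1 of 6 listed that was tested, rose from 6.13 ± 0.538 CPM to 8.39 ± 0.496 CPM in I80 and to 13.3 ± 1.10 CPM in DI150 (limma adjusted p = 0.0221 and 0.000225). The I80 call of Abcc10 was lost without PBS replicate 1 and without either I80 library (limma adjusted p up to 0.137). The peroxisomal transporter Abcd3 rose in DI150 from 100.6 to 176.2 CPM (limma adjusted p = 6.54e-05). The single tested gene of the ABCG group besides Abcg2 was not called.

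**Figure D4:**
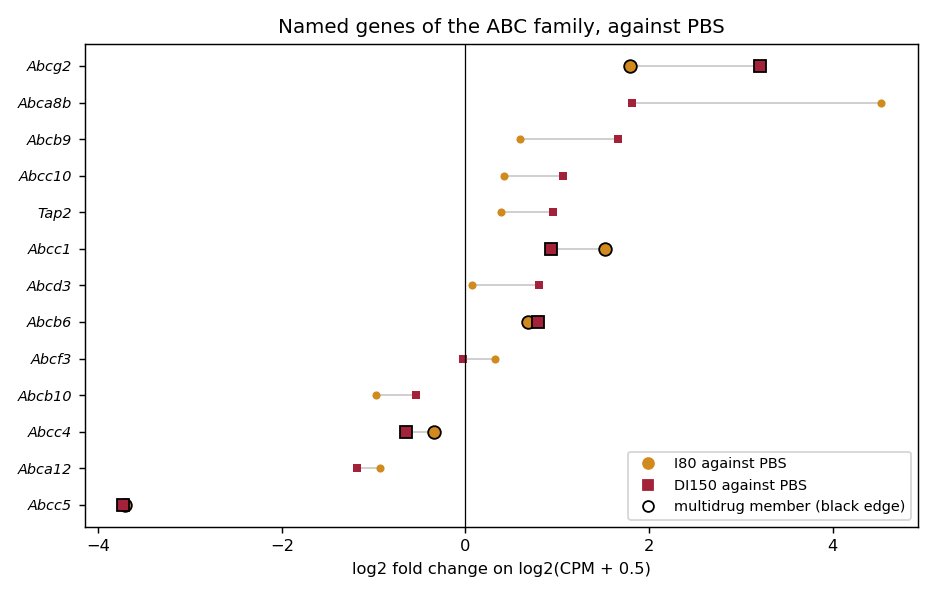
Log2 fold change against PBS (horizontal axis) of the 5 tested members (black edge) and of other ABC genes picked for the size of their change (no edge), in I80 (circles) and DI150 (squares), ordered by the change in DI150. Abcg2 stands at the top at 3.21 in DI150, Abcc5 at the bottom at -3.73, and Abca8b is the gene furthest right in I80.

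Genes that supply the substrates of these pumps were read beside them. Of 10 genes of glutathione supply 9 were tested, of which 5 were higher and none lower in I80 (median log2 change 0.77), and 5 higher and 2 lower in DI150 (median 0.54). The share called was 55.6% and 77.8%, against 66.4% and 68.7% of all tested genes in I80 and DI150. Slc7a11, which brings in cystine, rose from 20.9 to 115.2 CPM in I80 and 87.7 CPM in DI150, and Gclm, a subunit of the enzyme that starts glutathione synthesis, from 57.3 to 276.6 and 311.7 CPM (limma adjusted p from 4.60e-07 to 1.16e-05). Of 25 conjugating enzymes 18 were tested, and 14 were higher and 3 lower in I80 (median 2.71), and 14 higher and 4 lower in DI150 (median 2.21), which is 94.4% and 100% called. Ugt1a1, Ugt1a6a and Ugt1a7c are among those higher and may count the same reads, with 160, 216 and 162 reads in PBS and 2309, 2954 and 2308 reads in I80. With these 3 taken as 1 gene, 12 of 16 were higher in each line, and 3 were lower in I80 and 4 in DI150 (medians 2.57 and 2.37). Some of the higher genes, Gsta3 among them, averaged below 1 CPM in PBS and passed the filter through the treated libraries alone. Such genes could be called only as higher, and Gstt2, which passed through its PBS level alone, only as lower. These counts and medians therefore depend in part on the filter. The glutathione S-transferase Gsta3 rose from 0.789 to 247.2 and 298.1 CPM (the sequence it shares with similar genes of its family was not measured), while Gstt2 fell from 229 reads in PBS to 1 read in I80 and none in DI150. Among 12 tested drug carriers outside the ABC family, 4 were higher and 2 lower in I80 and 3 higher and 4 lower in DI150, so that 50% and 58.3% were called. The nucleoside carrier Slc29a2 rose from 21.8 to 74.0 and 65.6 CPM, and the prostaglandin carrier Slco2a1 fell from 322.6 to 109.5 and 195.9 CPM (limma adjusted p from 9.39e-07 to 9.84e-05).

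Of 19 genes for regulators of efflux genes 12 were tested, with 9 higher and 2 lower in I80 (91.7% called) and 4 higher and 4 lower in DI150 (66.7% called), where 66.4% and 68.7% of all tested genes were called. Arnt, the partner of the aryl hydrocarbon receptor and of hypoxia-inducible factors, rose from 62.8 ± 2.23 to 404.7 ± 2.90 CPM in I80 and 648.9 ± 0.999 CPM in DI150 (limma adjusted p = 6.79e-08 and 2.48e-08). Between the treated lines 2 of the 12 regulators were higher and 8 lower in DI150 (83.3% called). In that comparison 43.8% of all tested genes were called, 21.9% higher and 21.9% lower. Arnt was among the higher (log2 difference 0.68, limma adjusted p = 0.000203), and the lower included Ybx1 (-0.88), Nfe2l2 (-0.47) and Keap1 (-0.46; limma adjusted p from 0.000212 to 0.00156 for these 3). Foxo3 fell from 37.1 to 15.4 and 19.2 CPM (limma adjusted p = 2.48e-05 and 0.000107). The xenobiotic receptors Nr1i2 and Nr1i3 had no read in any library. Of 7 genes for proteins that anchor pumps at the membrane, 1 was higher and 4 were lower in each treated line (71.4% called), among them moesin (Msn), from 970.3 to 387.9 and 262.7 CPM, and caveolin (Cav1), from 459.8 to 87.1 and 137.6 CPM (limma adjusted p from 4.99e-07 to 6.53e-05).

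Haem genes bear on Abcb6 and Abcg2, whose substrates include porphyrins. Of 19 listed, 17 were tested, and 8 were higher and 5 lower in I80, and again 8 and 5 in DI150, with median log2 changes of 0.18 and -0.06. That is 76.5% called in each line, near the 66.4% and 68.7% of all tested genes. The haem carrier Slc48a1 rose from 59.6 to 305.1 and 320.6 CPM (limma adjusted p = 2.28e-06 and 1.78e-06). Hebp1, which encodes a haem-binding protein, fell from 754 reads in PBS to none in both treated lines, at least 122.8-fold lower in I80 and at least 114.9-fold lower in DI150. Hebp1 passed the filter through its PBS level alone, so it could be called only as lower.

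Markers of other cell types were read because Abcc5, Abcc3 and Abcb1a were seen mainly in PBS. The 6 immune markers summed to 7.93 and 14.8 CPM in PBS, to 0.0780 and 0.0824 CPM in I80 and to 0.381 and 0.114 CPM in DI150. Csf1r, a receptor of macrophages, made up nearly all of the PBS sum with 7.67 and 14.5 CPM and was at 0 in the treated lines, while Cd3e and Adgre1 were at 0 in every library and Ptprc stood at 0.263 and 0.243 CPM in PBS. Like Csf1r, the genes Abcc5, Abcc3 and Abcb1a were higher in PBS replicate 2 than in PBS replicate 1, for Abcb1a within counting error. PBS replicate 2 was also the library with the most genes that had a read (15015), so this direction need not be particular to these genes. The part of immune cells in the levels of Abcc5, Abcc3 and Abcb1a was not tested. The 5 endothelial markers summed to at most 0.324 CPM in PBS and 0.742 CPM in a treated library, with Kdr and Cldn5 at 0, and the liver and intestinal markers to at most 0.283 CPM in any library. The 6 fibroblast markers summed to 21.8 to 24.0 CPM in all 6 libraries, with Pdgfrb at 0, but their makeup changed. Col1a2 stood at 15.3 CPM in each PBS library and at 0 in the 4 treated libraries, as a marker seen in PBS alone. Pdgfra went from 5.04 and 5.50 CPM in PBS to between 14.5 and 19.0 CPM in the treated libraries, and Col1a1 from 1.47 and 2.75 CPM to between 3.63 and 8.90 CPM. The part of such cells in the levels of Abcc5, Abcc3 and Abcb1a was likewise not tested. Adipocyte markers summed to at most 0.162 CPM in PBS and I80 and to 11.8 and 13.6 CPM in DI150, where Lpl made up nearly all of it and Adipoq was at 0. Abcg2 was also highest in DI150, and the part of such cells in its level was not tested.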

How the data were processed

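RNA of 6 libraries, 2 each of PBS, I80 and DI150, was depleted of ribosomal RNA and sequenced as single 81-base reads from a stranded kit, per the labels' protocols. STAR and mm10 are named without versions in the submitters' processing notes, and for the counter, its annotation and its strand setting the answer is not given in the sources used here. As deposited, the authors' values are CPM, each column summing to 1000000, for 24454 Entrez genes. Symbols were found for 24374 (99.67%) in a RefSeq table of GRCm38.p6. A DI150 column is numbered 3 where the labels number 1 and 2, so it was kept as a member of that group under its column number.

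All values were whole multiples of 1 read, within 1e-06 reads, for 100.0% of the 146724 values, so reads were recovered. The unit found was CPM, so limma 3.58.1 (R 4.3.3; lmFit, eBayes with trend) was fitted to log2(CPM + 0.5) for 11428 genes averaging 1 CPM or more, all 3 groups together, with 3 residual degrees of freedom and a prior of 4.52. The two-sided p-values were adjusted over these genes (Benjamini-Hochberg), with calls below 0.05. Folds are ratios of mean CPM. The log2 fold changes understate changes of genes at low CPM. Against 0 reads, a floor of 3 reads per library was used. Ratios of few reads have exact 95% intervals, which cover counting error only, as PCR copies cannot be told apart. Scripts were tested on simulated data. Alternatives included other pseudocounts, filters and scalings, edgeR 4.0.16 and DESeq2 1.42.0 on recovered reads, a replicate block, and each library left out.

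Gene lengths, positions and overlaps came from the GENCODE annotation of GRCm38, and promoters from the RefSeq table. All 9 members were named. A few genes of the other lists, counted in their totals, are not reported here. From each other list, the genes with the largest rise and fall among those called were named, plus genes needed beside them, and, for members with group means at least 1 apart on the log2 scale, the 2 most similar genes with a full symbol. Nr1i2, Nr1i3, the Ugt1a genes, Ybx1, Nfe2l2, Keap1 and the markers were named outside this rule, after their values were seen, and the count of the Ugt1a genes as 1 gene was also added then. Members and lists were chosen with earlier results of these data known.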

Additional observations from a re-analysis of the deposited data

Results flagged for a closer look

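The changes from PBS differed between the treated lines for 2 of the 5 tested members by the limma test of DI150 against I80, in a comparison in which 43.8% of all tested genes were called (5008 genes, and 2487 to 3209 without 1 library of I80 or DI150). Abcg2 stood 1.42 higher in DI150 on the log2 scale (limma adjusted p = 2.43e-05), with both DI150 libraries above both I80 libraries, and Abcc1 stood at -0.59 (limma adjusted p = 0.000946), with both DI150 libraries below both I80 libraries.

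The same test passed for named genes outside the 9, given here as log2 differences of DI150 from I80 with the range of limma adjusted p over them from 2.71e-05 to 0.0412. In the ABC family the differences were -2.71 for Abca8b, 1.07 for Abcb9, 0.43 for Abcb10, 0.56 for Tap2, 0.64 for Abcc10, 0.73 for Abcd3 and -0.34 for Abcf3. Among conjugating enzymes and carriers they were -3.99 for Gstt3, 0.83 for Slco2a1 and -1.15 for Slc15a2. Among regulators and anchors they were 0.68 for Arnt, 0.31 for Foxo3, -0.56 for Msn, 0.64 for Cav1, -0.88 for Ybx1, -0.47 for Nfe2l2 and -0.46 for Keap1. Genes picked for a profile like that of Abcc1 or Abcg2 share the difference by that choice, at -0.57 for Gle1, -0.53 for Tmx4, 1.46 for Glrb and 1.16 for Tns1. The differences of Abcb9, Abcb10, Tap2, Abcc10, Abcf3, Slc15a2, Foxo3 and Cav1 missed the threshold under at least 1 alternative, for 7 of these 8 genes without I80 replicate 2 (highest adjusted p = 0.248, for Slc15a2).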

How the results depend on the processing

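The 15 comparisons of tested members, each under up to 18 alternatives, gave 267 values, of which 258 kept their sign and their side of the threshold. Abcg2, Abcc1 and Abcb6 kept all their calls, with log2 changes of Abcg2 in DI150 against PBS from 3.19 to 3.24. The log2 fall of Abcc5 ranged from -2.98 to -5.67 in I80 and from -2.99 to -5.75 in DI150, the smallest with a pseudocount of 1, and Abcc5 is left out at a mean of at least 5 CPM. Its difference between the treated lines changed sign under quantile normalization (0.0606) and the replicate block (0.396), and ran from -0.295 to 0.251 over libraries left out, at 15 reads in all. Without a filter on low values 6 of 8 members were called against PBS in each line. Among all 16750 genes then fitted, 8320 were called in I80 and 8721 in DI150. The calls gained were those of Abcb1a in both lines and of Abcc2 in I80, with at most 13 reads in a library. Differences between the 2 PBS and the 2 I80 libraries correlated at r = 0.0228 across 11428 genes, so libraries of the same number showed no strong shared shift. That value cannot tell whether the libraries were paired by design, and DI150 was not compared in this way. The replicate block went by column number, so DI150 replicate 3 stood alone in its block. In that fit the comparisons of DI150 therefore rested on DI150 replicate 1 alone for that group. With the replicate block Abcc4 was called in I80 (log2 -0.34, limma adjusted p = 0.0468) and not in DI150 (-0.35, 0.115), and 2688 genes were called between the treated lines in place of 5008, while the count ran from 2487 to 5972 over libraries left out (2487 to 3209 without a library of I80 or DI150); fits with a library fewer or a block have fewer residual degrees of freedom. Scalings moved the median gene by at most 0.06. Of 75 calls of the 32 genes outside the 9 that the naming rule picked, 61 held under each alternative and none changed sign. Those lost against PBS under some alternative were Abca12, Chac1 and Slc15a2 in DI150 and Tap2, Abcc10 and Abcf3 in I80. Depth limits Abcc2, Abcc3, Abcb1a and Abcb1b, which hold at most 36 reads in a library.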
